A study of Mus musculus with 12 samples.

Results

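Fatty acid oxidation and ketogenesis genes were followed in whole liver of 2-week-old mice. The set is a fixed list of 35 genes that covers fatty acid uptake, the carnitine shuttle, beta-oxidation in mitochondria and in peroxisomes, electron transfer, ketone body formation and the regulators of these steps. Each gene was read from the array features (transcript clusters) annotated to it alone, and where a gene had several, from the one of highest mean over all arrays. This gave 34 measured members of the 19938 genes with such a cluster. Expression of Acsl1 was not analysed here, because the annotation used names no cluster for it alone. Hadhb and Ppargc1a had 2 clusters each. Of the 34 members, 20 act mainly in mitochondria, 7 in peroxisomes and 7 elsewhere in the cell or in several places.

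Labelled RNA was hybridised to 12 Affymetrix mouse arrays, 3 for each of 4 genotypes, all aged 2 weeks. Stat3Fl/Fl mice carry loxP-flanked (floxed) alleles of Stat3, the transcription factor that relays interleukin 6 and growth hormone signals. Stat3Δhc mice carry the deletion of Stat3, and the labels do not name the Cre line that made it. Stat3Fl/FlMdr2-/- and Stat3Δhc Mdr2-/- mice carry the same Stat3 alleles and lack Mdr2 (gene Abcb4), the transporter that moves phospholipid into bile. Loss of Mdr2 is used as a mouse model of sclerosing cholangitis. No group has unmodified Stat3 alleles, so every comparison for Stat3 is with floxed liver. The series was made to find pathways behind cholestasis and bile acid injury in Stat3Δhc Mdr2-/- mice. The labels do not say whether the 3 arrays of a genotype (A, B and C) come from separate animals, so p-values measure the spread between these arrays.

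Fatty acids enter hepatocytes through carriers, are bound by a cytosolic binding protein and are activated to acyl-CoA. Long chains reach the mitochondrial matrix as carnitine esters, where a cycle of dehydrogenation, hydration, dehydrogenation and thiolysis shortens them. Very long and branched chains start in peroxisomes. In suckling mice, whose milk is rich in fat, the liver relies on this pathway and turns much of the acetyl-CoA into ketone bodies. The nuclear receptor PPARα, aided by the coactivator PGC-1α, is known to raise transcription of many of these genes.

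All values are log2 signals after RMA, a summary of probe intensities that includes quantile normalization, so that a change of 1 is a doubling. The median signal of an array lay between 6.01 and 6.14, and arrays of a genotype correlated at 0.98 to 0.991. Stat3 was 9.19 to 9.54 in arrays with floxed alleles and 7.69 to 8.12 in arrays with the deletion. Abcb4 lay between 8.87 and 9.36 in Mdr2-/- arrays and between 10 and 10.28 in the others. In the fit of 13977 genes the median SE of a log2 change was 0.11, and the number of arrays limits the precision.

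Transcripts of skeletal muscle moved with the Mdr2 genotype, and those of other tissues and of sex did so only in part. The mean of 31 skeletal muscle genes was 7.82 to 8.45 in the 6 arrays without the Mdr2 knockout and 5.47 to 5.85 in the 6 arrays with it. Mdr2 loss was accompanied by falls of 30 of 30 tested muscle genes in floxed liver (median change -2.71) and of 28 of 30 in Stat3Δhc liver (median -2.55), while 0 of 30 were called for either Stat3 deletion. Heart muscle genes had means of 5.75 to 6.01 without the knockout and 5.42 to 5.74 with it. Exocrine pancreas genes had means of 5.60 to 9.39 without the knockout and 5.36 to 5.70 with it. Array A of Stat3Fl/Fl (5.60) and array A of Stat3Δhc (5.73) lay near the arrays with the knockout. Fat genes had means of 5.63 to 6.11 and 5.52 to 5.80. Ucp1, the defining brown fat gene, was 6.89 in array C of Stat3Δhc and 4.43 to 5.06 in the other 11 arrays. Hepatocyte markers (8 measured) had means of 12.56 to 13.08 without the knockout and 12.59 to 13.02 with it. Arrays of Stat3Fl/Fl, Stat3Δhc and arrays B and C of Stat3Δhc Mdr2-/- had high Y-linked transcripts. Arrays of Stat3Fl/FlMdr2-/- and array A of Stat3Δhc Mdr2-/- had high Xist. Mdr2 loss in floxed liver and this sex pattern therefore cannot be told apart. Stat3 deletion on the knockout is unbalanced for the pattern too. There arrays B and C of Stat3Δhc Mdr2-/- differ in it from all Stat3Fl/FlMdr2-/- arrays. Mdr2 loss in Stat3Δhc liver is unbalanced by array A of Stat3Δhc Mdr2-/-. Stat3 deletion without the knockout compares arrays of the same pattern. In whole liver, fewer cells of a type and less RNA per cell cannot be told apart either. The share of the muscle transcripts in the changes below was not tested.

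Promoter sequence from RefSeq (build GRCm38.p6, 250 bases before to 50 after each transcript start) was searched on both strands, since PPARα binds direct repeats of AGGTCA and STAT proteins bind TTCNNNGAA. RefSeq promoters were matched for 31 listed members, 33 promoters in all, of which 2 belong to Acsl1, whose expression was not measured. Crat, Acaa2, Decr1 and Vnn1 had no promoter in the table and were not searched. The exact direct repeat, AGGTCA, any base and AGGTCA again, was in 0 of 33 member promoters and 0.0396% of the 32851 promoters in the table. The looser form, AGGNCA, any base and AGGNCA again, was in 1 of 33 (3.03%), that of Fabp1, and in 0.381% of all promoters. The single core AGGTCA, which also lies inside the repeats, was in 7 of 33 (21.2%) against 16.3% of all, and TTCNNNGAA was in 3 of 33 (9.09%) against 8.3%. The core matches lay in Fabp1 (2 of them), Acot4, Acadvl, Acadm, Cd36, Cpt1a and Slc27a2, of which Cpt1a and Slc27a2 were called in no comparison. Printed below are the repeat match, all 3 STAT matches and, as 1 example of the core chosen after its values were seen, that of Acot4, with the matching letters in capitals, each read 5′ to 3′ along the strand of its gene. The match in Fabp1 is the looser repeat on the opposite strand, 67 bases before the start, on the plus strand at chr6:71199798-71199838.
Fabp1: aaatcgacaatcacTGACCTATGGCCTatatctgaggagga
The match in Acot4 is the single core on the opposite strand, 13 bases before the start, on the plus strand at chr12:84038352-84038385.
Acot4: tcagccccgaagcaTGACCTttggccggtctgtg
The STAT motif of Hadha (minus strand) and Hadhb (plus strand), which encode the subunits of 1 enzyme, is the same stretch, chr5:30155114-30155150, between the divergent starts of the genes.
Hadha: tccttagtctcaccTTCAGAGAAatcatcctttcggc
Hadhb: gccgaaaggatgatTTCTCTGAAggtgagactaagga
The third STAT match, in Cpt2, lies 200 bases before the start on the minus strand at chr4:107923767-107923803.
Cpt2: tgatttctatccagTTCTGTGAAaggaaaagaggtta
A match is a description of letters and does not show that a factor binds there.

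Mdr2 loss was accompanied by lower signals across the pathway, in both Stat3 states. In Stat3Δhc liver 19 of 34 members fell and 1 rose at adjusted p under 0.05, where 10.5% of all tested genes fell, 6.9% rose and 17.4% changed in either direction. In floxed liver 8 members fell and 2 rose, where 5.65% of all tested genes fell, 7.12% rose and 12.8% changed. The median member change was -0.33 in Stat3Δhc liver (all genes -0.02) and -0.26 in floxed liver (all genes -0.00). The 3 Mdr2-/- arrays lay below all 3 control arrays for 23 members in Stat3Δhc liver and 19 in floxed liver, where 22.3% and 15.1% of all genes did so. They lay above them for 2 and 4 members, where 14.9% and 18.2% of all genes did (37.2% and 33.3% in either direction). With the sex pattern as a covariate, 18 members were called in Stat3Δhc liver and 0 in floxed liver. Of all genes 18.7% and 0.73% were called in that fit. The covariate rests on array A of Stat3Δhc Mdr2-/- against its arrays B and C. For Mdr2 loss in Stat3Δhc liver and for Stat3 deletion without the knockout, that fit therefore equals leaving out this array. There it is not a further check. The count of members called in Stat3Δhc liver was 11 without array A and 10 without array C of Stat3Δhc, and 13 without array C of Stat3Δhc Mdr2-/-. In these fits 10.1%, 8.27% and 11% of all genes were called. In floxed liver leaving out Stat3Fl/Fl arrays A, B and C in turn gave 6, 4 and 5, and the count was 4 without array C of Stat3Fl/FlMdr2-/-. Of all genes 9.4%, 7.99%, 7.91% and 8.05% were called in these fits.

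Few members were called with Stat3 deletion. On the Mdr2 knockout 4 members fell (Fabp1, Decr1, Bdh1 and Vnn1) and Acadm rose, where 3.9% of all tested genes fell, 1.87% rose and 5.77% changed in either direction. Without the knockout Ehhadh rose and Crot fell, where 1.51% of all genes rose, 1.07% fell and 2.58% changed. The median member change was -0.08 on the knockout (all genes -0.03) and 0.06 without it (all genes -0.01). With the sex pattern as a covariate 0 members were called on the knockout and 1 without it. That fit called 0.265% and 2.35% of all genes. Leaving out 1 of the 12 arrays gave 2 to 4 called members on the knockout, the fewest without B of Stat3Fl/FlMdr2-/-, and 0 to 3 without it, with 0 when any of A or C of Stat3Δhc, B or C of Stat3Fl/Fl or B of Stat3Fl/FlMdr2-/- was left out. The share of all genes called in these fits was 2.16% to 10.6% on the knockout and 0.494% to 5.39% without it. On the knockout the deleted arrays lay above all floxed arrays for 2 members and below for 10, where 10.9% and 17.7% of all genes did so (28.6% in either direction). Without it they lay above for 7 and below for 5, where 14.3% and 10.8% of all genes did (25.1% in either direction). The Stat3 and Mdr2 comparisons share arrays, so their changes are given side by side and are not independent of each other.

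The 20 mitochondrial members had means of 10.58, 10.67 and 10.65 in arrays A, B and C of Stat3Fl/Fl, and 10.71, 10.58 and 10.73 in Stat3Δhc. On the Mdr2 knockout they had 10.47, 10.43 and 10.30 in Stat3Fl/FlMdr2-/-, and 10.32, 10.38 and 10.27 in Stat3Δhc Mdr2-/-. All 6 Mdr2-/- arrays were below all 6 others. For the 7 peroxisomal members the means were 9.97, 10.07 and 9.97 in Stat3Fl/Fl and 10.17, 9.94 and 10.15 in Stat3Δhc. They were 9.92, 9.91 and 9.76 in Stat3Fl/FlMdr2-/- and 9.78, 9.82 and 9.75 in Stat3Δhc Mdr2-/-, again below every array without the knockout, though array A of Stat3Fl/FlMdr2-/- and array B of Stat3Δhc lay close together. With Mdr2 loss in floxed liver 6 of 20 mitochondrial members fell (median change -0.27), and of 7 peroxisomal members 1 fell and 1 rose (median -0.15). In that comparison 5.65% of all tested genes fell and 7.12% rose. The 7 peroxisomal changes there ran from -0.83 (Acot4) to 0.63 (Pex11a), with 5 negative and 2 positive. Acot4 thus weighs most in the lower peroxisomal mean of floxed liver. Whether the peroxisomal means stay apart without Acot4 was not tested. In Stat3Δhc liver 13 of 20 mitochondrial members fell (median -0.34) and 4 of 7 peroxisomal members fell (median -0.43), where 10.5% of all genes fell. For Stat3 deletion on the knockout 1 mitochondrial member rose, 2 fell (median -0.11), and 0 peroxisomal members were called (median -0.06), where 1.87% of all genes rose and 3.9% fell. Without the knockout 0 mitochondrial members were called (median 0.04), and 1 peroxisomal member rose and 1 fell (median 0.16), where 1.51% of all genes rose and 1.07% fell. The difference between the places was not tested.

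**Figure D1:**
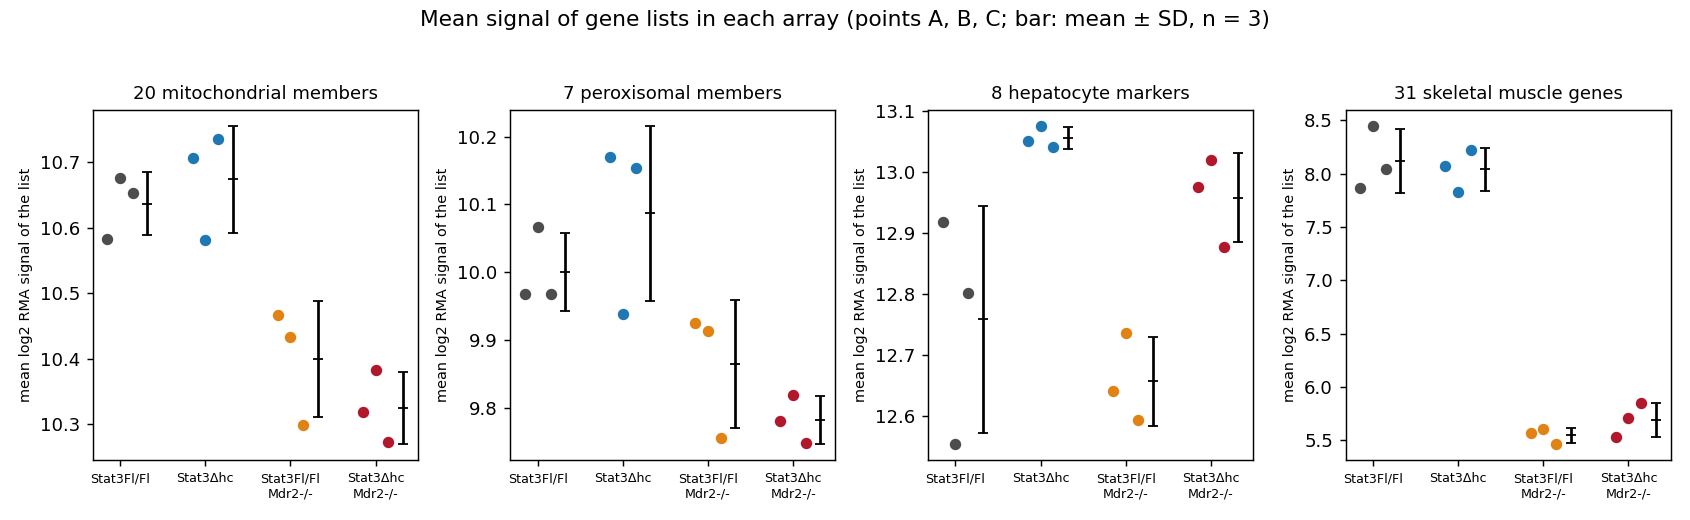
Mean log2 signal per array (points A, B and C from left to right) of 20 mitochondrial members, 7 peroxisomal members, 8 hepatocyte markers and 31 skeletal muscle genes in 4 genotypes, with bars for the mean and SD of 3 arrays; each panel has its own axis, which does not start at 0. The means of both member lists and of the muscle genes are lower in the 6 Mdr2-/- arrays than in the other 6. The mean of the hepatocyte markers is higher in both deleted genotypes than in the floxed genotype of the same Mdr2 state. Of these 8 markers 5 had positive and 3 negative changes in each Stat3 comparison. In each, 2 rose at adjusted p under 0.05, where 1.87% of all genes rose on the knockout and 1.51% without it.

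Of the regulators, Ppara encodes PPARα. Its signal was 10.17, 10.18 and 10.09 in Stat3Fl/Fl, 10.08, 9.80 and 9.91 in Stat3Δhc, 10.01, 9.82 and 9.52 in Stat3Fl/FlMdr2-/-, and 9.52, 9.86 and 9.79 in Stat3Δhc Mdr2-/-. All 3 other genotypes lay below Stat3Fl/Fl, without a call in any comparison (adjusted p = 0.0771 for Mdr2 loss in floxed liver, log2 change -0.37, SE 0.13). Ppargc1a, which encodes PGC-1α, was the one member that rose with Mdr2 loss in Stat3Δhc liver. It was 7.12, 7 and 7.04 in Stat3Fl/Fl, 7.59, 7.46 and 7.43 in Stat3Δhc, 7.44, 7.70 and 7.77 in Stat3Fl/FlMdr2-/-, and 8.61, 8.47 and 7.69 in Stat3Δhc Mdr2-/-. Array C of the last group stood near the Stat3Fl/FlMdr2-/- arrays, and arrays A and B lay above all others. The rise in Stat3Δhc liver was 1.7-fold (log2 change 0.76, SE 0.18, adjusted p = 0.0146), and its call was lost without array C of Stat3Δhc or array B of Stat3Δhc Mdr2-/- (adjusted p = 0.0518 to 0.0574). It was also lost with the mean of the 2 clusters (0.67, adjusted p = 0.0609) and with only the groups compared in the fit (adjusted p = 0.0592). Ppargc1a did not pass the test for Mdr2 loss in floxed liver (0.58, adjusted p = 0.056) or for Stat3 deletion on the knockout (0.62, adjusted p = 0.0658) and without it (0.44, adjusted p = 0.254).

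Fabp1, the fatty acid binding protein of hepatocytes whose promoter held the looser repeat, was the uptake member with the most calls. It was 12.65, 12.71 and 12.73 in Stat3Fl/Fl, 12.48, 12.43 and 12.55 in Stat3Δhc, 12.09, 12.49 and 12.23 in Stat3Fl/FlMdr2-/-, and 11.68, 11.84 and 11.55 in Stat3Δhc Mdr2-/-. The arrays with both defects were the lowest 3 of the 12, and Stat3Fl/Fl arrays the highest 3. Fabp1 fell 1.74-fold with Mdr2 loss in Stat3Δhc liver (log2 change -0.79, SE 0.11, adjusted p = 0.000416) and 1.35-fold in floxed liver (-0.43, SE 0.11, adjusted p = 0.0178). With Stat3 deletion on the knockout it fell 1.49-fold (-0.58, SE 0.11, adjusted p = 0.00947), against -0.21 (adjusted p = 0.342) without the knockout. The Stat3 call was lost with only the groups compared in the fit (adjusted p = 0.0603). The floxed Mdr2 call was lost without array B or C of Stat3Fl/Fl or A or C of Stat3Fl/FlMdr2-/- (adjusted p = 0.0588 to 0.0726). Cd36, a membrane carrier of long-chain fatty acids that is also strong in muscle and fat, was 9.47, 9.26 and 9.64 in Stat3Δhc and 9.13, 9.11 and 8.56 in Stat3Δhc Mdr2-/-. These groups did not overlap, and Cd36 fell 1.43-fold (-0.52, SE 0.15, adjusted p = 0.0331). Without array C of Stat3Δhc Mdr2-/- its change was -0.33 (adjusted p = 0.109), and the call was also lost without array A or C of Stat3Δhc (adjusted p = 0.0875 to 0.137 over these 3) and with only the groups compared (0.0872). Slc27a2, a very long-chain acyl-CoA synthetase and transporter, stayed between 12.36 and 12.86 over all 12 arrays with no call.

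In the carnitine shuttle, Slc25a20, Crat and Cpt2 moved with the Mdr2 genotype, and all 5 members had negative changes in both Mdr2 comparisons. Among all 13977 tested genes, 7100 had negative changes in floxed and 7432 in Stat3Δhc liver. Slc25a20, the carnitine-acylcarnitine carrier of the inner mitochondrial membrane, was 10.38, 10.37 and 10.35 in Stat3Fl/Fl and 10.38, 10.28 and 10.39 in Stat3Δhc. Mdr2-/- arrays gave 10.09, 10.13 and 10.06 in floxed and 9.99, 9.93 and 9.85 in deleted liver. The Mdr2-/- arrays were all below the others. It fell 1.21-fold in floxed liver (log2 change -0.27, SE 0.07, adjusted p = 0.0259) and 1.34-fold in Stat3Δhc liver (-0.43, SE 0.07, adjusted p = 0.00211). Crat, carnitine acetyltransferase, which is abundant in muscle, was 8.81, 9.02 and 9.06 in Stat3Fl/Fl and 8.77, 8.45 and 8.50 in Stat3Fl/FlMdr2-/-. In Stat3Δhc it was 9.24, 9.15 and 9.23, and in Stat3Δhc Mdr2-/- 8.72, 8.69 and 8.50. The fall was 1.31-fold in floxed (-0.39, SE 0.11, adjusted p = 0.0291) and 1.48-fold in deleted liver (-0.57, SE 0.11, adjusted p = 0.00337), with no overlap in either, although array A of Stat3Fl/Fl and array A of Stat3Fl/FlMdr2-/- lay close together.

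Cpt2, which reforms acyl-CoA in the matrix, was 9.57, 9.32 and 9.68 in Stat3Δhc and 9.02, 9.11 and 8.96 in Stat3Δhc Mdr2-/-. It fell 1.41-fold there (log2 change -0.50, SE 0.1, adjusted p = 0.00551), and in floxed liver its change was -0.32 (adjusted p = 0.0579). Cpt1a, the malonyl-CoA-sensitive entry step of the outer membrane, was not called in any comparison. Its changes with Mdr2 loss were -0.25 (adjusted p = 0.138) in floxed and -0.23 (adjusted p = 0.14) in Stat3Δhc liver. Crot, the peroxisomal carnitine octanoyltransferase, followed the Stat3 genotype instead. It was 12.23, 12.49 and 12.43 in Stat3Fl/Fl and 11.91, 11.74 and 11.99 in Stat3Δhc, a 1.42-fold fall (-0.51, SE 0.11, adjusted p = 0.0376). On the knockout it was 12.38, 12.27 and 12.05 in floxed and 11.69, 11.94 and 11.92 in deleted liver (-0.38, adjusted p = 0.0657). All 6 deleted arrays lay below all 6 floxed arrays. The Crot call was lost without any of the 3 Stat3Δhc arrays, without B or C of Stat3Fl/Fl or without B of Stat3Fl/FlMdr2-/- (adjusted p = 0.0527 to 0.18), and with no filter on low values (0.0525). In floxed liver the Mdr2 calls of Slc25a20 and Crat were lost without B or C of Stat3Fl/Fl or C of Stat3Fl/FlMdr2-/-. Slc25a20 was also lost without A of either group and Crat without B of Stat3Fl/FlMdr2-/- (adjusted p = 0.0647 to 0.0864 and 0.0991 to 0.109), and Crat also with only the groups compared (0.0588).

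The 10 members of the mitochondrial beta-oxidation cycle all had negative changes with Mdr2 loss in either Stat3 state. Of all 13977 tested genes, 7100 had negative changes in floxed and 7432 in Stat3Δhc liver. In floxed liver 3 fell (Acads, Hadh and Decr1), where 5.65% of all tested genes fell. In Stat3Δhc liver 6 fell (Acadvl, Acadl, Hadha, Hadhb, Hadh and Decr1), where 10.5% of all tested genes fell. Decr1, the 2,4-dienoyl-CoA reductase that prepares polyunsaturated chains, was 10.63, 10.62 and 10.66 in Stat3Fl/Fl and 10.58, 10.44 and 10.61 in Stat3Δhc. On the knockout it was 10.41, 10.38 and 10.23 in floxed and 9.91, 10.13 and 10.02 in deleted liver. The 4 genotypes formed 4 steps that did not overlap. Decr1 fell 1.23-fold with Mdr2 loss in floxed liver (log2 change -0.29, SE 0.09, adjusted p = 0.0393) and 1.43-fold in Stat3Δhc liver (-0.52, SE 0.09, adjusted p = 0.00167). With Stat3 deletion on the knockout it fell 1.25-fold (-0.32, SE 0.09, adjusted p = 0.0467), a call lost without any one of the 12 arrays (adjusted p = 0.0507 to 0.128).

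Hadh, the short-chain 3-hydroxyacyl-CoA dehydrogenase, was 12.09, 12.26 and 12.27 in Stat3Fl/Fl and 11.83, 11.74 and 11.54 in Stat3Fl/FlMdr2-/-. In Stat3Δhc it was 12.07, 11.96 and 12.14, and in Stat3Δhc Mdr2-/- 11.56, 11.82 and 11.69. All 6 Mdr2-/- arrays were below the other 6, with falls of 1.42-fold in floxed liver (log2 change -0.50, SE 0.1, adjusted p = 0.00648) and of 1.29-fold in deleted liver (-0.37, SE 0.1, adjusted p = 0.0265). Acadvl, the very long-chain dehydrogenase of the first step, was 10.77, 10.77 and 10.73 in Stat3Fl/Fl and 11.04, 10.93 and 11.02 in Stat3Δhc. On the knockout it was 10.65, 10.84 and 10.58 in floxed and 10.51, 10.57 and 10.59 in deleted liver. Stat3Δhc arrays were the highest 3 of the 12. Acadvl fell 1.36-fold with Mdr2 loss in Stat3Δhc liver (-0.44, SE 0.08, adjusted p = 0.00328) and had a change of -0.07 (adjusted p = 0.658) in floxed liver.

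Hadha and Hadhb, the subunits of the mitochondrial trifunctional protein whose starts share the STAT motif stretch, fell 1.27-fold (log2 change -0.34, adjusted p = 0.0209) and 1.26-fold (-0.33, adjusted p = 0.0329) with Mdr2 loss in Stat3Δhc liver. Their Stat3 changes on the knockout were -0.30 (adjusted p = 0.0658) and -0.19 (adjusted p = 0.204), and without it -0.12 and -0.14. Acadl, the long-chain dehydrogenase, fell 1.26-fold (-0.34, adjusted p = 0.0237) in Stat3Δhc liver. Acads, the short-chain dehydrogenase, fell in floxed liver from 10.35, 10.38 and 10.18 to 10.01, 9.95 and 9.84, a 1.29-fold change without overlap (-0.37, adjusted p = 0.0172). The thiolase gene Acaa2 and the isomerase gene Eci1 were not called in any comparison. Acadm, the medium-chain dehydrogenase, went the other way with Stat3 deletion. It was 11.32, 11.37 and 11.34 in Stat3Fl/FlMdr2-/- and 11.70, 11.69 and 11.61 in Stat3Δhc Mdr2-/-, a 1.25-fold rise without overlap (0.32, SE 0.07, adjusted p = 0.0239). Without the knockout its change was 0.27 (adjusted p = 0.0653).

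Leaving out 1 array ended several of these calls. In floxed liver the Mdr2 call of Decr1 was lost without A of Stat3Δhc or any Stat3Fl/Fl or Stat3Fl/FlMdr2-/- array (adjusted p = 0.0533 to 0.15). Acads was lost without A or B of Stat3Fl/Fl or C of Stat3Fl/FlMdr2-/- (0.0584 to 0.0742). In Stat3Δhc liver Acadl (0.0813 to 0.0921), Hadha (0.0549 to 0.0907) and Hadhb (0.105 to 0.118) were lost without A or C of Stat3Δhc or C of Stat3Δhc Mdr2-/-, and Hadh without those or A of Stat3Δhc Mdr2-/- (0.0611 to 0.106). The Acadm rise was lost without any Stat3Fl/FlMdr2-/- array or B of Stat3Δhc Mdr2-/- (0.0581 to 0.0761). With only the groups compared in the fit, the calls of Decr1 (0.14) and Acadm (0.107) for Stat3 deletion on the knockout were lost, as were those of Decr1 (0.0509) with Mdr2 loss in floxed liver and of Acadl (0.0619), Hadhb (0.0749) and Hadh (0.0538) in Stat3Δhc liver. Cyclic loess scaling ended the Stat3 call of Decr1 (0.099) and the Stat3Δhc call of Hadh (0.0534), no filter ended both the Stat3 (0.07) and the floxed (0.0643) call of Decr1, and array weights ended its Stat3 call (0.0543). In the fit with the sex covariate Hadh was not called in Stat3Δhc liver (0.0697), which is the same fit as without A of Stat3Δhc Mdr2-/-. With that covariate the floxed changes of Acads, Decr1 and Hadh were -0.17, -0.13 and -0.31, with adjusted p = 0.716, 0.779 and 0.555.

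**Figure D2:**
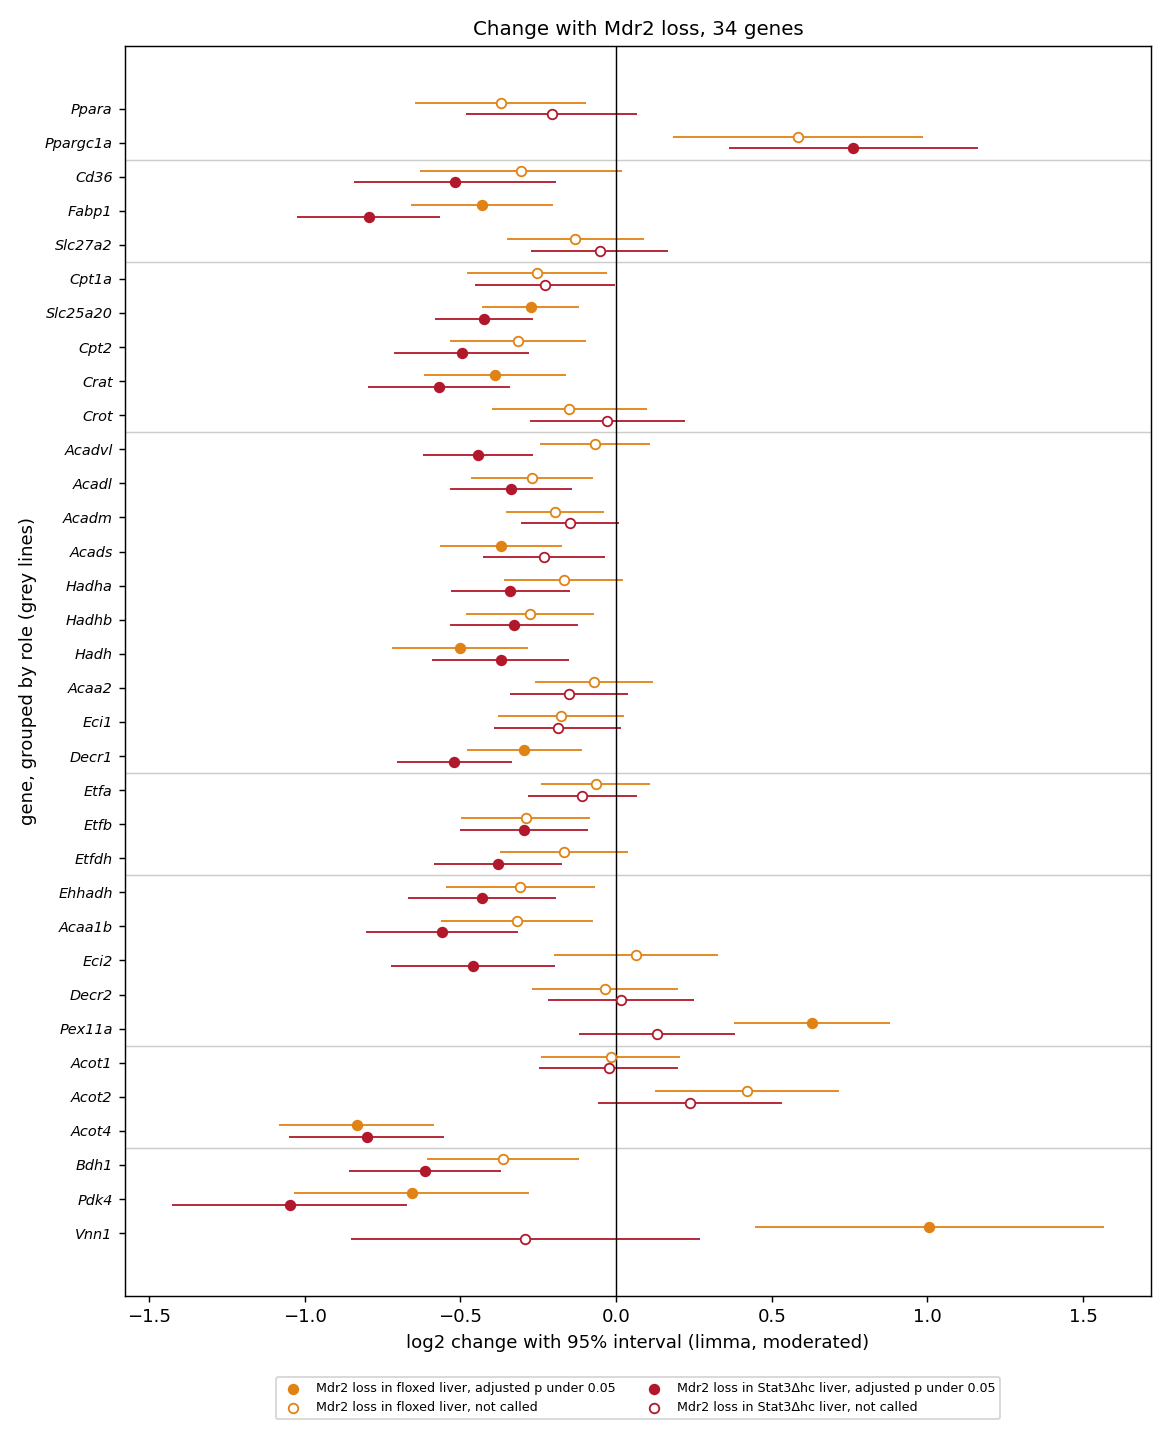
Log2 change with Mdr2 loss (x axis, point and 95% interval from limma) for 34 genes (y axis, grouped by role) in floxed liver and in Stat3Δhc liver; filled points passed adjusted p under 0.05. The falls run through most roles, with Acot4, Fabp1 and Pdk4 among the largest, and Vnn1 rose in floxed liver (1.01) with a change of -0.29 in Stat3Δhc liver.

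The electron transfer flavoprotein and its dehydrogenase pass electrons from the acyl-CoA dehydrogenases to ubiquinone. Etfdh was 11.51, 11.44 and 11.62 in Stat3Δhc and 11.15, 11.17 and 11.11 in Stat3Δhc Mdr2-/-, a fall of 1.3-fold (log2 change -0.38, SE 0.1, adjusted p = 0.0174). The groups were well apart, but the call was lost without A or C of Stat3Δhc (adjusted p = 0.0508 to 0.0795). Etfb, the beta subunit, was 11.32, 11.25 and 11.37 in Stat3Δhc and 10.96, 11.11 and 10.98 in Stat3Δhc Mdr2-/- (-0.30, SE 0.1, adjusted p = 0.04998), just inside the threshold. With 1 array left out it was called without A or B of Stat3Fl/FlMdr2-/- and lost without any of the other 10 arrays (adjusted p = 0.0524 to 0.161). It was also lost with no filter (0.0678), cyclic loess (0.0852) and only the groups compared (0.0703). The sex covariate (0.0976) is here the same fit as leaving out A of Stat3Δhc Mdr2-/-. Etfa, the alpha subunit, had changes of -0.06 and -0.11 with Mdr2 loss and was not called. None of the 3 was called for Stat3 deletion.

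Among peroxisomal members, Ehhadh, the bifunctional hydratase and dehydrogenase, was 10.20, 10.34 and 10.13 in Stat3Fl/Fl and 10.80, 10.52 and 10.75 in Stat3Δhc. With Mdr2 loss it was 10.12, 9.84 and 9.79 in floxed and 10.29, 10.16 and 10.34 in deleted liver. Deleted arrays were above the floxed arrays of the same Mdr2 state, and Stat3Δhc was highest of the 4 genotypes. Ehhadh rose 1.38-fold with Stat3 deletion without the knockout (log2 change 0.47, SE 0.11, adjusted p = 0.0445), with a change of 0.34 (adjusted p = 0.0764) on it. With Mdr2 loss in Stat3Δhc liver it fell 1.35-fold (-0.43, SE 0.11, adjusted p = 0.0191). Acaa1b, a peroxisomal thiolase, was 10.73, 10.37 and 10.51 in Stat3Δhc and 10.05, 10 and 9.88 in Stat3Δhc Mdr2-/-, a 1.47-fold fall without overlap (-0.56, SE 0.11, adjusted p = 0.00537). Its sequence is close to that of Acaa1a, so that probes may read both. Eci2, the peroxisomal enoyl-CoA isomerase, was 9.75, 9.51 and 9.74 in Stat3Δhc and 9.23, 9.28 and 9.12 in Stat3Δhc Mdr2-/- and fell 1.38-fold (-0.46, SE 0.12, adjusted p = 0.0224). In floxed liver its change was 0.07 (adjusted p = 0.785). Decr2, the peroxisomal dienoyl-CoA reductase, lay between 10.59 and 11.02 and was not called.

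Pex11a, which promotes elongation and division of peroxisomes, was 7.92, 7.59 and 7.66 in Stat3Fl/Fl and 8.24, 8.38 and 8.44 in Stat3Fl/FlMdr2-/-. It was 7.92, 7.81 and 8.17 in Stat3Δhc and 8.19, 8.13 and 7.97 in Stat3Δhc Mdr2-/-. The floxed groups did not overlap and the deleted groups did. Pex11a rose 1.55-fold with Mdr2 loss in floxed liver (log2 change 0.63, SE 0.12, adjusted p = 0.00376) and had a change of 0.13 (adjusted p = 0.423) in Stat3Δhc liver. The Ehhadh rise was lost without A or C of Stat3Δhc, any Stat3Fl/Fl array, B or C of Stat3Fl/FlMdr2-/- or A or B of Stat3Δhc Mdr2-/- (adjusted p = 0.0516 to 0.213). It was also lost with no filter (0.0627), cyclic loess (0.0559) and only the groups compared (0.0573). The sex covariate (0.0553) is here the same fit as leaving out A of Stat3Δhc Mdr2-/-. The Mdr2 call of Ehhadh in Stat3Δhc liver was lost without A or C of Stat3Δhc or B of Stat3Δhc Mdr2-/- (0.0615 to 0.0804) or with cyclic loess (0.0621), and that of Eci2 without A or C of Stat3Δhc or C of Stat3Δhc Mdr2-/- (0.0743 to 0.0867).

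Acyl-CoA thioesterases release free fatty acids from acyl-CoA. Acot4, a peroxisomal thioesterase, was 9.06, 9.01 and 9.09 in Stat3Fl/Fl and 9.05, 8.84 and 8.98 in Stat3Δhc. With Mdr2 loss it was 8.28, 8.39 and 7.99 in floxed and 8.11, 8.35 and 8.01 in deleted liver. The 6 Mdr2-/- arrays lay clearly below the 6 others, and the Stat3 genotypes overlapped on either side. Acot4 fell 1.78-fold in floxed liver (log2 change -0.83, SE 0.12, adjusted p = 0.000638) and 1.74-fold in Stat3Δhc liver (-0.80, SE 0.12, adjusted p = 0.000713). With the sex pattern as a covariate its floxed change was -0.76 and the call was lost (adjusted p = 0.175). Acot2, a mitochondrial thioesterase, was 6.90, 7.18 and 7 in Stat3Fl/Fl and 7.79, 7.32 and 7.23 in Stat3Fl/FlMdr2-/- (0.42, adjusted p = 0.0624). Acot1, the cytosolic form, lay near the lower limit of the tested genes (percentile 31.3 to 41.4 of the array) and was not called. Genes of this family are close in sequence, so that probes of 1 may read another, which was not tested.

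Bdh1 makes 3-hydroxybutyrate, the main circulating ketone body. It was 11.27, 11.44 and 11.46 in Stat3Fl/Fl, 11.25, 11.03 and 11.26 in Stat3Δhc, 11.08, 11.15 and 10.84 in Stat3Fl/FlMdr2-/-, and 10.39, 10.71 and 10.61 in Stat3Δhc Mdr2-/-. The arrays with both defects were the lowest 3 of the 12. Bdh1 fell 1.53-fold with Mdr2 loss in Stat3Δhc liver (log2 change -0.61, SE 0.11, adjusted p = 0.00323), with a change of -0.36 (adjusted p = 0.0518) in floxed liver. With Stat3 deletion on the knockout it fell 1.37-fold (-0.45, SE 0.11, adjusted p = 0.0365), against -0.21 (adjusted p = 0.403) without the knockout. That Stat3 call was lost without A of Stat3Δhc, B of Stat3Fl/Fl, A or B of Stat3Fl/FlMdr2-/- or A or C of Stat3Δhc Mdr2-/- (adjusted p = 0.0504 to 0.124). It was also lost with no filter (0.0513), cyclic loess (0.0564) and only the groups compared (0.099).

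Pdk4 inhibits pyruvate dehydrogenase and so spares glucose when fat is burnt, and it is also strong in muscle. It was 8.84, 8.93 and 8.57 in Stat3Fl/Fl and 9.21, 8.92 and 9.16 in Stat3Δhc. With Mdr2 loss it was 8.36, 7.81 and 8.21 in floxed and 8.29, 8.18 and 7.67 in deleted liver. All 6 Mdr2-/- arrays were below the other 6. Pdk4 fell 1.58-fold in floxed liver (log2 change -0.66, SE 0.17, adjusted p = 0.0266) and 2.07-fold in Stat3Δhc liver (-1.05, SE 0.17, adjusted p = 0.00181). With the sex pattern as a covariate its floxed change was -1.02 (adjusted p = 0.208). The floxed call was lost without A or B of Stat3Fl/Fl or B or C of Stat3Fl/FlMdr2-/- (adjusted p = 0.0574 to 0.101).

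Vnn1, the pantetheinase that recycles the precursor of coenzyme A, had the widest range of the members. It was 7.66, 8.27 and 8.05 in Stat3Fl/Fl, 7.75, 7.72 and 8.35 in Stat3Δhc, 8.92, 8.68 and 9.40 in Stat3Fl/FlMdr2-/-, and 7.68, 7.14 and 8.13 in Stat3Δhc Mdr2-/-. The 3 Stat3Fl/FlMdr2-/- arrays were above all 9 others, which overlapped among themselves. Vnn1 rose 2.01-fold with Mdr2 loss in floxed liver (log2 change 1.01, SE 0.26, adjusted p = 0.0226) and had a change of -0.29 (adjusted p = 0.432) in Stat3Δhc liver. With Stat3 deletion on the knockout it fell 2.55-fold (-1.35, SE 0.26, adjusted p = 0.0117), against -0.05 (adjusted p = 0.95) without the knockout. The floxed Mdr2 call was lost without A or C of either floxed group (adjusted p = 0.0518 to 0.1).

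**Figure D3:**
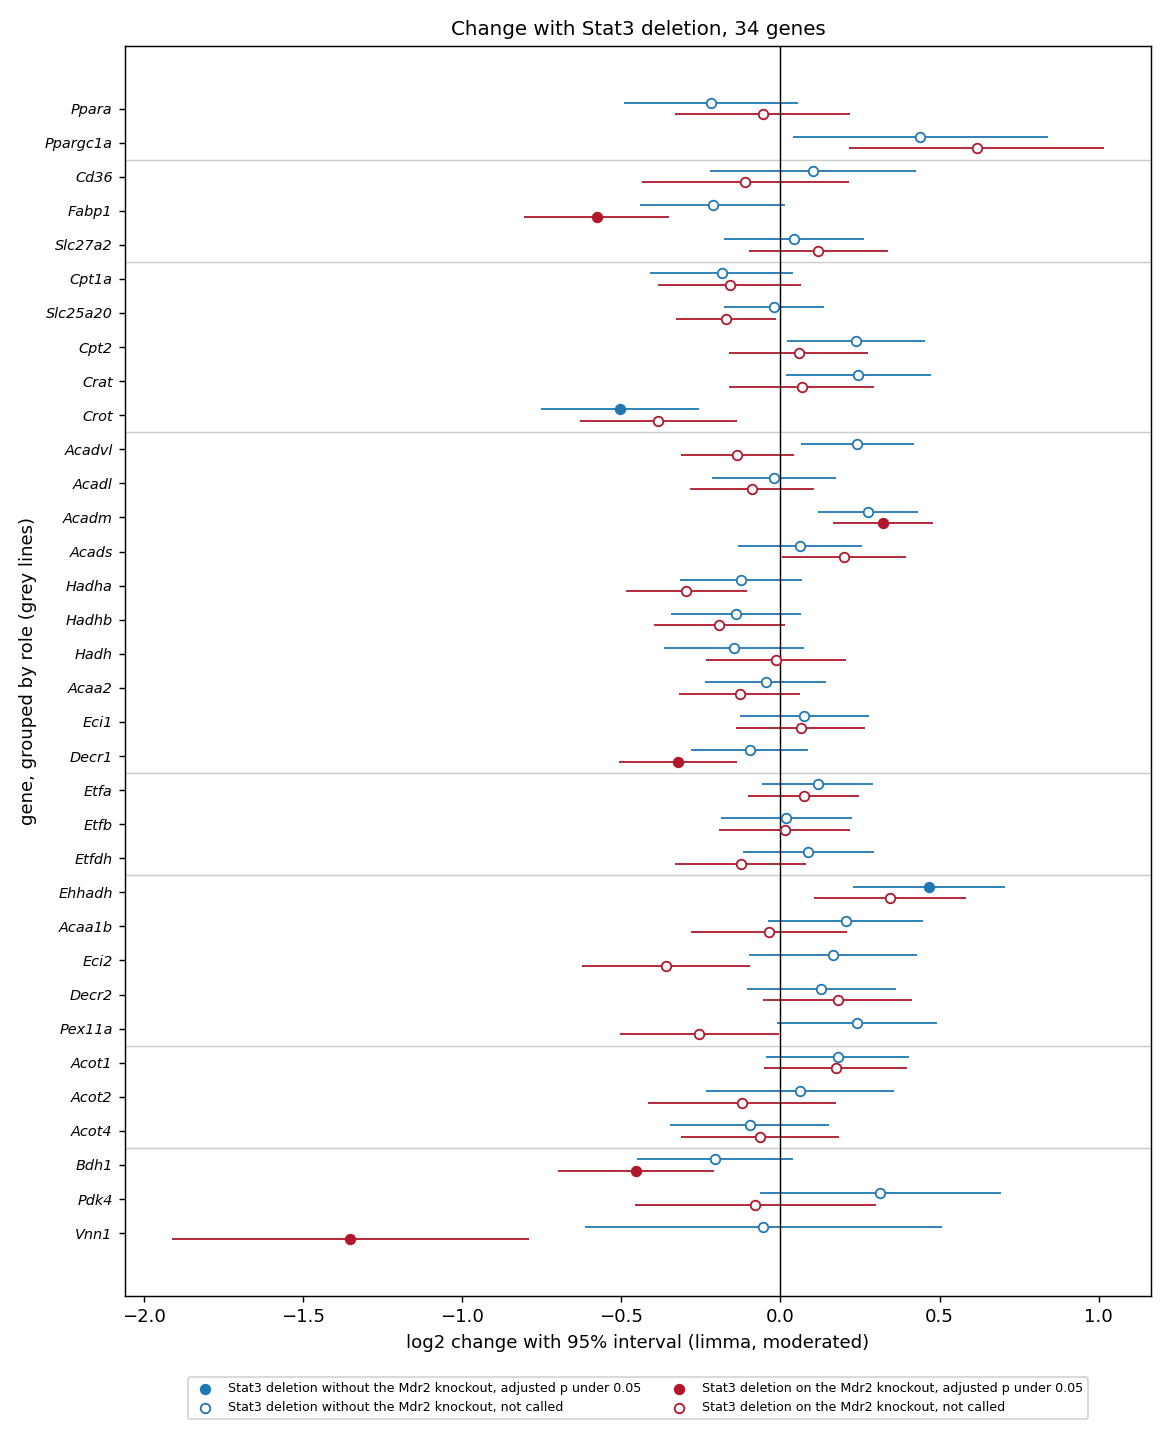
Log2 change with Stat3 deletion (x axis, point and 95% interval from limma) for 34 genes (y axis, grouped by role) without and on the Mdr2 knockout; filled points passed adjusted p under 0.05. On the knockout Vnn1, Fabp1, Bdh1 and Decr1 fell and Acadm rose, and without it Crot fell and Ehhadh rose.

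The test of the difference between the Stat3 effects, which is also the difference between the Mdr2 effects, passed for 0 of 34 members (limma), where 0.0715% of all genes passed, 0.0143% upward and 0.0572% downward. An unadjusted p under 0.05 was found for 5 of 34 members (14.7%) and for 16.9% of all tested genes, so the members' share was not above the background. The larger number of falls with Mdr2 loss in Stat3Δhc than in floxed liver is therefore not shown to be a difference between the Stat3 states for any single member. The values of these 5 members (Vnn1, Eci2, Pex11a, Acadvl and Fabp1) are given as a description. Vnn1 had a difference of -1.30 (95% interval -2.09 to -0.50, adjusted p = 0.224). For Eci2 it was -0.52 (-0.90 to -0.15, adjusted p = 0.225), for Pex11a -0.50 (-0.85 to -0.14, adjusted p = 0.228), for Acadvl -0.38 (-0.63 to -0.13, adjusted p = 0.224) and for Fabp1 -0.36 (adjusted p = 0.264). In each the Stat3 change on the knockout was the lower of the pair. With arrays weighted by their quality in the fit, Vnn1 (-1.49, adjusted p = 0.0216), Acadvl (-0.40, adjusted p = 0.039) and Eci2 (-0.56, adjusted p = 0.04997) passed. In that fit 4.06% of all genes passed. The median difference of the members was -0.10, and that of all genes -0.04.

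Other genes of the pathway were taken from a list of 57, of which 51 had a cluster and 49 were tested. With Mdr2 loss in floxed liver 10 fell and 4 rose (median -0.10), where 5.65% of all tested genes fell and 7.12% rose. In Stat3Δhc liver 15 fell and 3 rose (median -0.22), where 10.5% and 6.9% of all genes did. For Stat3 deletion on the knockout 6 rose and 2 fell (median 0.00), where 1.87% of all genes rose and 3.9% fell. Without the knockout 5 rose and 1 fell (median 0.16), where 1.51% and 1.07% of all genes did. The difference passed for 0 of 49 (limma), with an unadjusted p under 0.05 for 10 of 49 (20.4%) and for 16.9% of all genes. Up to 4 called genes of smallest adjusted p are named per comparison. With Mdr2 loss, Ech1, the dienoyl-CoA isomerase, fell by 0.44 (adjusted p = 0.00237) in floxed and by 0.61 (adjusted p = 0.000219) in Stat3Δhc liver on the log2 scale. Lpin1, a phosphatidate phosphatase and coactivator of PPARα that is also strong in muscle, rose by 2.10 (adjusted p = 0.000576) and 1.57 (adjusted p = 0.00297). In floxed liver Plin5, a lipid droplet protein of oxidative tissues, rose by 0.67 (adjusted p = 0.000621). Its change in Stat3Δhc liver was 0.23 (adjusted p = 0.102). Acacb, whose product malonyl-CoA inhibits CPT1, fell by 0.50 (adjusted p = 0.00121) in floxed and by 0.41 (adjusted p = 0.00346) in Stat3Δhc liver. Acat1, the acetoacetyl-CoA thiolase, fell by 0.50 in both (adjusted p = 0.00395 and 0.00324). In Stat3Δhc liver Hsd17b4, the peroxisomal multifunctional enzyme, fell by 0.45 (adjusted p = 0.00267), and its change in floxed liver was -0.05 (adjusted p = 0.754). These 10 calls held when each array was left out. In floxed liver all 5 were lost with the sex pattern as a covariate (adjusted p = 0.203 to 0.409).

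For Stat3 deletion Slc16a1, Acad10 and Pdk2 were among the genes named in both Mdr2 states, in comparisons that use different arrays and 1 shared estimate of the spread. Slc16a1, the monocarboxylate carrier that exports ketone bodies and lactate, fell by 1 (adjusted p = 0.00344) on the log2 scale on the knockout and by 0.69 (adjusted p = 0.027) without it. The acyl-CoA dehydrogenase family gene Acad10 rose by 0.78 (adjusted p = 0.00473) and 0.60 (adjusted p = 0.0245). Pdk2, another kinase of pyruvate dehydrogenase, rose by 0.80 (adjusted p = 0.0133) and 0.88 (adjusted p = 0.0135). Acacb rose by 0.40 (adjusted p = 0.0106) on the knockout and by 0.31 (adjusted p = 0.0495) without it. Slc27a5, the bile acid and very long-chain acyl-CoA synthetase, rose by 0.53 (adjusted p = 0.0196) and 0.65 (adjusted p = 0.0113). On the knockout all 5 calls were lost with the sex pattern as a covariate (adjusted p = 0.0936 to 0.229). That of Pdk2 was also lost without B of Stat3Fl/FlMdr2-/- or B of Stat3Δhc Mdr2-/- (adjusted p = 0.0551 to 0.0576), and that of Slc27a5 without C of Stat3Fl/FlMdr2-/- or B of Stat3Δhc Mdr2-/- (0.07 to 0.0731). With only the groups compared in the fit, Acacb (0.0696) and Slc27a5 (0.0664) on the knockout and Slc16a1 (0.066) without it were lost. With the replicate letter as a block, Slc16a1 (0.0554) and Acacb (0.0902) without the knockout were lost. Without the knockout the Acacb call was lost without any of 10 of the 12 arrays (0.0513 to 0.231), the exceptions being A of Stat3Fl/Fl and C of Stat3Δhc Mdr2-/-. It was also lost with no filter (0.0815), trend and robust eBayes (0.0622) and only the groups compared (0.0779). The sex covariate (0.0567) is here the same fit as leaving out A of Stat3Δhc Mdr2-/-. The other 4 calls were lost without A of Stat3Δhc or without B or C of Stat3Fl/Fl. Slc16a1 (0.1 to 0.157) and Acad10 (0.07 to 0.137) were also lost without B of Stat3Δhc, and Pdk2 (0.0504 to 0.0874) without C of Stat3Δhc, and the range for Slc27a5 was 0.0561 to 0.0794.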

How the data were processed

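Gene expression in mouse liver was measured on 12 Affymetrix arrays, 3 per genotype. The values used are log2 signals that the authors deposited. RMA made them, per the submitters' processing notes (version not given in the sources used here). Titles gave the groups. In the source names the Mdr2-/- genotypes are exchanged relative to titles, descriptions and genotypes, and Stat3 signals followed the titles. Clusters naming exactly 1 gene (21789 of 35556; 1621 named several and 12146 none) were kept, and each gene was taken by the cluster of highest mean. A gene was tested if 3 or more arrays had it above their own 40th percentile, which left 13977 genes and all 34 measured members. Differences were tested with limma 3.58.1 (R 4.3.3), by lmFit and eBayes on all 12 arrays with 8 residual degrees of freedom, and Benjamini-Hochberg adjusted over all tested genes at 0.05. No pseudocount was needed.

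The members and the gene lists were chosen with earlier results of these data known. All members are named, with up to 4 called genes of smallest adjusted p per comparison from the list of other pathway genes, and Stat3 and Abcb4 as a check of labels. Marker lists (skeletal and heart muscle, fat, exocrine pancreas, hepatocyte, intestine) were followed per array. The mean of the intestine list was 5.49 to 5.98 without and 5.32 to 5.61 with the knockout, and its member Fabp2 was 8.05 to 9.50 over all arrays. Alternatives were no filter, a filter at the 60th percentile, averaging the clusters of a gene, cyclic loess, array weights, trend and robust eBayes, only the groups compared, the letter as a block, the sex pattern as a covariate, and leaving out each array. Promoters came from RefSeq GRCm38.p6. Probe positions were not used. Matplotlib 3.10.9 in Python 3.11.15 drew the figures.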

Additional observations from a re-analysis of the deposited data

How the results depend on the processing

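No member changed direction in any called comparison under any alternative. Of 37 calls of members, 15 held when each array was left out and 13 held under all other settings. The members called numbered 5 for Stat3 deletion on the knockout, 2 without it, 0 for the difference, 10 for Mdr2 loss in floxed liver and 20 for it in Stat3Δhc liver. In that order of comparisons, no filter gave 3 and 0 members for the Stat3 deletions, trend and robust eBayes gave 17 for floxed liver, and the fit of only the groups compared gave 1 on the knockout. Of all genes these fits called 2.96%, 1.3%, 13.7% and 1.65%, in the same order. Array weights gave 10 members for Stat3 deletion without the knockout, 3 for the difference and 17 for floxed liver. They called 21.1%, 4.06% and 16.7% of all genes there. The sex pattern as a covariate gave 0 and 1 members for the Stat3 deletions and 0 for floxed liver. That fit called 0.265%, 2.35% and 0.73% of all genes. The replicate block by letter gave 2 and 0 members for the Stat3 deletions, 7 for floxed and 16 for Stat3Δhc liver. It called 3.38%, 1.7%, 10.4% and 13.3% of all genes. The member calls that this block ended are not listed in the paragraphs on single genes. For Stat3 deletion on the knockout they were Acadm (adjusted p = 0.0543), Decr1 (0.0874) and Bdh1 (0.0673), and without it Crot (0.072) and Ehhadh (0.0658). In floxed liver they were Slc25a20 (0.051), Crat (0.0547) and Decr1 (0.0762). In Stat3Δhc liver they were Cd36 (0.0562), Hadhb (0.0578), Hadh (0.0504) and Etfb (0.0655). Deviations of arrays of the same letter correlated at -0.41 to 0.37 between genotypes. With 3 arrays per genotype these values do not decide whether arrays of a letter were handled together. Leaving out 1 array gave 2 to 4, 0 to 3, 0, 4 to 13 and 10 to 20 members. Of all genes 2.16% to 10.6%, 0.494% to 5.39%, 0% to 0.458%, 7.91% to 15.2% and 8.27% to 18.7% were called. Apart from these losses of samples or tested genes, the cause of each move was not tested. Over all genes, Stat3 deletion on the knockout called 261 up and 545 down, and with cyclic loess 466 up and 444 down. The 806 genes called there became 2298 with array weights, 473 with the replicate block, 230 with only the groups compared and 37 with the sex covariate. In floxed liver 1785 became 102 with that covariate, and in Stat3Δhc liver 2431 became 5830 with array weights and 1541 with only the groups compared. Without the knockout 361 became 2955 with array weights and 237 with the block, and for the difference 10 became 567 with array weights, 23 with trend and robust eBayes, 6 with no filter, 6 with the sex covariate and 3 with the block. With 3 arrays per genotype, small changes may be missed.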

Other observations

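Some arrays were the lowest or highest of their genotype for a larger share of members than of all tested genes. Array B of Stat3Δhc was the lowest for 32 of 34 members (94.1%), against 45.7% of all genes. Array C of Stat3Fl/FlMdr2-/- was the lowest for 23 members (67.6% against 32.7%) and array A of Stat3Fl/Fl for 18 (52.9% against 35.8%). Array C of Stat3Δhc was the highest for 20 members (58.8% against 47.5%). In Stat3Δhc Mdr2-/- array C was the lowest for 17 members (50% against 47.7%), a share near that of all genes. These counts describe single arrays and were not tested.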
